A study of Saccharomyces cerevisiae with 16 samples.

Results

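Yeast strains carrying an mCherry reporter whose terminator held 2 copies of an A motif (modNAA) were compared with strains whose terminator held 1 copy of a T motif (modNTN). The libraries were chosen by their labels, and they are 4 of the 16 libraries of the series, 2 of modNAA and 2 of modNTN. All were made from BY4741, a laboratory strain of budding yeast of mating type a, with the reporter on a low copy plasmid under the promoter of RPS3 and followed by a modified terminator of RPS3. The RPS3 protein is part of the small ribosomal subunit. Each modified terminator had 3 insertion sites of 9 bp. In modNAA these held a random sequence (N), A and A, and in modNTN they held N, T and N. By their motifs the 2 constructs differ at the second and the third site, and whether their random sequences are the same is not known, so a difference between them cannot be assigned to the A copies or to the T copy alone. Another construct, with random sequence at all 3 sites (modNNN, 2 libraries), is given beside them where it helps to place a value. Cultures were grown to an OD600 of 0.7 over 4 h at 30 °C without uracil, which selects for the URA3 gene on the plasmid. Each construct is 1 plasmid sequence, so n counts libraries and not independent terminators.

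A terminator sets where RNA polymerase stops and where the new mRNA is cut and given its poly(A) tail. In budding yeast this site is guided by a UA-rich efficiency element, an A-rich positioning element downstream of it and U-rich stretches around the cut. The RNA between the stop codon and the cut is the 3′ UTR, where proteins that steer mRNA decay, such as those of the PUF family, bind short motifs. The assay was HT-5PSeq, which sequences RNA with a 5′ phosphate, mostly intermediates left by decapping and 5′-3′ decay, primed here from the poly(A) tail alone. A read count is therefore the abundance of tailed decay intermediates and not total mRNA. In such bulk cultures fewer cells carrying a transcript and less of it per cell cannot be told apart.

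The inserted motifs are shown because they are the designed difference between the constructs. Capitals mark all of A and, in T, the 4 letters that, read as UGUA in RNA, are the core bound by PUF proteins.
A: ATATTC
T: TGTAcaata
The T motif fills its site of 9 bp, whereas the A motif has 6 letters. The bases beside A within its site, the random sequences and the distances of the sites from the stop codon were not given in any source used here, so no 3′ end below could be placed relative to a motif.

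The modNAA libraries held 1781614 and 1959846 reads, against 1659708 and 1709697 in modNTN. Of the 16 libraries of the series, 13 held at least 1070844 reads and were used in the fits, and 3 of other constructs were near-empty. The labels do not say whether the 2 libraries of a construct were grown as separate cultures, so p-values rest on a spread that may be technical. An exact permutation test of 2 libraries against 2 has 6 splits and cannot go below a two-sided p of 0.3333. The tests below are therefore fits across all genes or positions. Chromosomal URA3 and MET17 had 0 reads in all 4 libraries, and LEU2 had 0 in both modNAA libraries and 1 in each modNTN library. HIS3, of which the strain is known to lack only an internal part, had 247 and 206 CPM (reads scaled to a library total of 1000000) in modNAA, against 233 and 231 CPM in modNTN, and reads within the deleted part were not examined. STE2, the alpha-factor receptor made by cells of mating type a, stood at 557 and 537 CPM in modNAA and 571 and 546 CPM in modNTN, and the alpha-factor gene MF(ALPHA)1 had at most 6 reads in any of the 4.

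The reporter gave fewer reads in modNAA than in modNTN. It had 5283 and 4965 reads in the modNAA libraries, against 12191 and 14472 reads in modNTN. Scaled to the library total these were 2965 and 2533 CPM in modNAA and 7345 and 8465 CPM in modNTN. Both modNAA libraries lay below both modNTN libraries by far more than the gap within either pair. The means were 2749 ± 305 CPM in modNAA and 7905 ± 792 CPM in modNTN (SD, n = 2 each). The log2 fold change was −1.52 (SE 0.18, 95% interval −1.90 to −1.15), which is 2.87-fold lower in modNAA (interval 2.21 to 3.72). It passed edgeR's quasi-likelihood test with an adjusted p of 0.0025 over 5262 rows, and it was the only row of this table called (0.019% of the rows tested). The call was lost without the second modNAA library (log2 fold change −1.38, edgeR adjusted p = 0.20) or without the second modNTN library (−1.39, edgeR adjusted p = 0.23), whereas the size changed little. It was also lost with the near-empty libraries kept in the fit (−1.52, edgeR adjusted p = 0.99994).

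**Figure D1:**
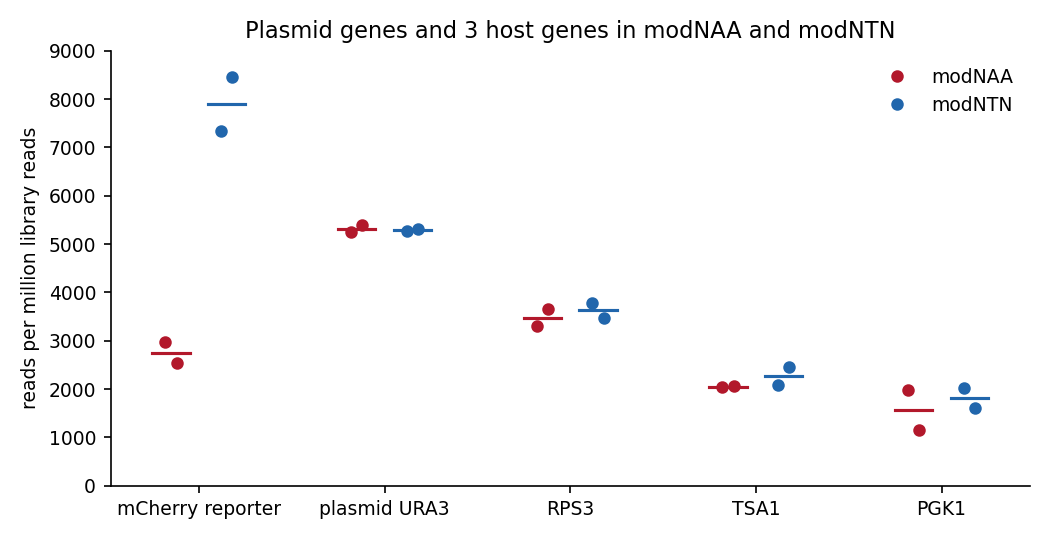
CPM (reads scaled to a library total of 1000000, linear axis from 0) of the mCherry reporter, plasmid URA3 and the chromosomal genes RPS3, TSA1 and PGK1, with 1 point for each modNAA library (left, red) and modNTN library (right, blue) and a line at the mean of each pair. The reporter lies at 2965 and 2533 CPM in modNAA, below 7345 and 8465 CPM in modNTN, while plasmid URA3, RPS3 and TSA1 differ far less and PGK1 varies within modNAA from 1989 to 1143 CPM.

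The marker on the same plasmid had like read counts in both constructs. Plasmid URA3, which encodes the uracil synthesis enzyme that the medium selects for, stood at 5246 and 5388 CPM in modNAA and at 5272 and 5312 CPM in modNTN. The modNAA libraries lay on either side of the modNTN pair. Its log2 fold change was 0.01 (SE 0.17, 95% interval −0.35 to 0.36, edgeR adjusted p = 0.999), so a change of plasmid marker reads beyond these bounds was not seen. Per read of plasmid URA3 the reporter had 0.565 and 0.470 reads in modNAA and 1.39 and 1.59 reads in modNTN, a like difference (log2 −1.53). Chromosomal RPS3, which shares its promoter with the reporter, had 3305 and 3649 CPM in modNAA and 3783 and 3471 CPM in modNTN (log2 fold change −0.06, SE 0.16). TSA1, a peroxiredoxin gene, gave −0.15 (SE 0.18). PGK1, a glycolytic enzyme gene, had 1989 and 1143 CPM in modNAA and 2030 and 1615 CPM in modNTN (−0.21, SE 0.31). None of RPS3, TSA1 and PGK1 passed the test. Set side by side against modNNN (6617 and 5923 CPM), which both comparisons share, the reporter gave −1.22 in modNAA (SE 0.17, edgeR adjusted p = 0.030) and 0.30 in modNTN (SE 0.17, edgeR adjusted p = 0.999). The other modified constructs carry no A and have 1 usable library each. Of these, modHTH, which also carries T, had 1882 CPM of the reporter, below modNAA. The reporter had 5136 CPM in modHNH and 8195 CPM in modNGG. A low reporter was thus not particular to modNAA, and its cause was not tested.

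The reporter's transcripts also ended at different places. The deposited position tables gave 5207 and 4906 reporter 3′ ends in the modNAA libraries and 11852 and 14081 in modNTN within 200 nt after the stop codon. These equal 98.6% and 98.8% of the reporter's reads in modNAA and 97.2% and 97.3% in modNTN, so nearly all reads were covered in each. The most used site lay 75 nt after the stop codon in all 4 libraries. The ends were spread over more sites in modNAA than in modNTN. The effective number of sites, which is the inverse of the sum of squared shares, was 9.25 and 8.74 in modNAA and 5.63 and 5.37 in modNTN. In modNNN, which has no A motif, it was higher than in either, at 12.1 and 11.6. The mean position was 70.4 and 70.9 nt in modNAA and 72.99 and 72.85 nt in modNTN. The modNAA and modNTN pairs did not overlap in either measure, and the mean moved by 2.30 nt while single sites changed many-fold. For scale, the CPM of 1562 of the 5268 host genes tested (29.7%) did not overlap between these pairs either. Lack of overlap between 2 libraries and 2 is thus common and shows little by itself.

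**Figure D2:**
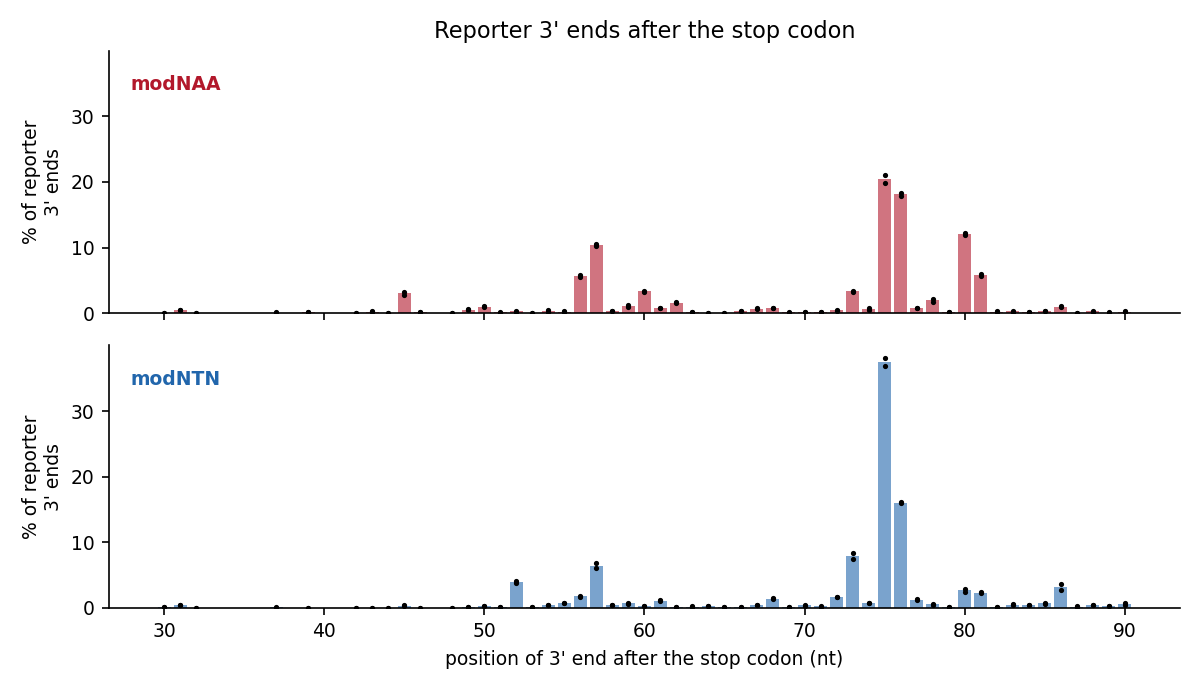
Share of the reporter's 3′ ends (percent) at each tested position from 30 to 90 nt after the stop codon, with modNAA above modNTN, bars at the mean of 2 libraries and points at each library. The site at 75 nt holds 19.9% and 21.1% of ends in modNAA against 36.9% and 38.1% in modNTN, while 80 nt holds 11.8% and 12.1% in modNAA against 2.49% and 2.85% in modNTN.

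Single positions were tested on counts of ends, relative to all ends of the same gene in the same library. Of 58 reporter positions with enough ends, 27 differed in share between the constructs, 13 higher and 14 lower in modNAA (edgeR, adjusted p under 0.05 over 163 positions of 5 genes, of which 16.6% were called). Without the first or the second modNAA library, 8 and 9 positions were called lower. None of the 105 positions tested on the control genes URA3, RPS3, TSA1 and PGK1 was called (0% of them), and 1 was called under 4 of the alternatives. At an unadjusted p under 0.05 there were 3 of these, and their smallest edgeR adjusted p was 0.079. The median size of the log2 fold change over the tested positions was 1.29 on the reporter, 0.10 on plasmid URA3, 0.11 on RPS3, 0.13 on TSA1 and 0.22 on PGK1. Shares of 1 gene add up to a whole, so a lower share at a large site raises the shares of the others.

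The sites between 72 and 77 nt carried less of the modNAA reporter. Together they held 43.1% and 44.4% of ends in modNAA, against 64.7% and 65.4% in modNTN. At 75 nt the modNAA libraries had 1037 and 1034 ends, which is 19.9% and 21.1%, and the modNTN libraries had 4372 and 5364 ends, which is 36.9% and 38.1%. The share was 1.83-fold lower in modNAA (log2 fold change −0.87, SE 0.09, edgeR adjusted p = 4.0e-06). At 73 nt the share was 3.36% and 3.30% in modNAA and 8.34% and 7.39% in modNTN (log2 fold change −1.24, SE 0.16, edgeR adjusted p = 4.7e-05). The second most used site of both constructs, at 76 nt, held 17.9% and 18.3% in modNAA and 15.9% and 16.1% in modNTN, a difference that did not pass (log2 fold change 0.18, SE 0.11, edgeR adjusted p = 0.43).

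The cluster just downstream was larger in modNAA than in modNTN. The sites from 78 to 81 nt held 19.95% and 20.10% of ends in modNAA, against 5.50% and 5.73% in modNTN. They held 25.3% in modNGG, a construct with no A motif and 1 usable library, so a large cluster here was not particular to modNAA. The third most used site of modNAA lay at 80 nt, with 617 and 596 ends or 11.8% and 12.1%. The modNTN libraries had 295 and 402 ends there, or 2.49% and 2.85%. This share was 4.48-fold higher in modNAA (log2 fold change 2.17, SE 0.15, edgeR adjusted p = 7.2e-08). At 78 nt the share was 2.21% and 1.73% in modNAA and 0.532% and 0.504% in modNTN (log2 fold change 1.93, SE 0.23, edgeR adjusted p = 2.3e-05). Further out the order turned. At 86 nt modNAA held 0.960% and 1.06%, against 3.58% and 2.76% in modNTN (log2 fold change −1.65, SE 0.31, edgeR adjusted p = 0.0011), and 89 nt was lower as well, with 7 and 3 ends in modNAA against 35 and 48 in modNTN.

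Sites from 43 to 64 nt differed in share in both directions. At 60 nt modNAA had 170 and 164 ends, or 3.26% and 3.34%, against 38 and 36 ends, or 0.321% and 0.256%, in modNTN. The share was 11.5-fold higher in modNAA (log2 fold change 3.52, SE 0.23, edgeR adjusted p = 5.5e-08). At 45 nt the libraries had 170 and 136 ends in modNAA and 44 and 32 in modNTN, a 10.2-fold higher share (log2 fold change 3.35, SE 0.26, edgeR adjusted p = 1.6e-07). The site at 62 nt had 87 and 76 ends in modNAA against 24 and 19 in modNTN (log2 fold change of the share 3.26, SE 0.29). Smaller sites at 49, 46 and 43 nt were higher in modNAA too. Those at 46 and 43 nt rest on few ends, 9 and 7 against 0 and 3, and 14 and 5 against 4 and 1, and the call at 43 nt was lost without the first modNAA library (edgeR adjusted p = 0.18).

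The site at 52 nt was used far less in the A construct than in the T construct. It had 13 and 16 ends in modNAA, or 0.250% and 0.326%, against 479 and 538 ends, or 4.04% and 3.82%, in modNTN. The share was 13.6-fold lower in modNAA (log2 fold change −3.77, SE 0.26, edgeR adjusted p = 7.2e-08). The next position, 53 nt, had 1 and 4 ends in modNAA and 22 and 28 in modNTN. At 55 nt the shares were 0.269% and 0.122% in modNAA and 0.759% and 0.781% in modNTN (log2 fold change −1.96, SE 0.34, edgeR adjusted p = 0.00063). Both 64 nt, with 2 and 2 ends in modNAA against 27 and 29 in modNTN, and 72 nt (0.403% and 0.550% against 1.60% and 1.69%) were lower in modNAA. At 149 nt neither modNAA library had an end, which allows a share of up to 0.0576% and 0.0611%, while each modNTN library had 10. Against 3 ends over both modNAA libraries this is at least 2.60-fold lower, and the call was lost without either modNAA library. Of the libraries fitted, only those of modNTN reached the 10 ends needed for testing at 149 nt. At 53 nt only those of modNTN and the modNGG library did. Both positions thus entered the test because of the construct in which they are high, so their calls add little.

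Other positions were called too, and are given after their values were seen. The pair at 56 and 57 nt was larger in modNAA than in modNTN. At 57 nt the share was 10.5% and 10.3% in modNAA and 6.07% and 6.79% in modNTN (log2 fold change 0.69, SE 0.15, edgeR adjusted p = 0.0041), and at 56 nt it was 5.82% and 5.50% in modNAA and 1.77% and 1.72% in modNTN (1.70, SE 0.25). At 81 nt it was 5.68% and 6.03% in modNAA and 2.37% and 2.25% in modNTN (1.34, SE 0.18). Positions 50 and 66 nt were higher in modNAA as well, and 70, 84, 85 and 90 nt were lower. The calls at 53, 57, 64, 66, 70, 84, 85, 89 and 90 nt were each lost under at least 1 alternative. At 57 nt this was without the first modNAA library (edgeR adjusted p = 0.057) or without the first modNTN library (0.075).

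**Figure D3:**
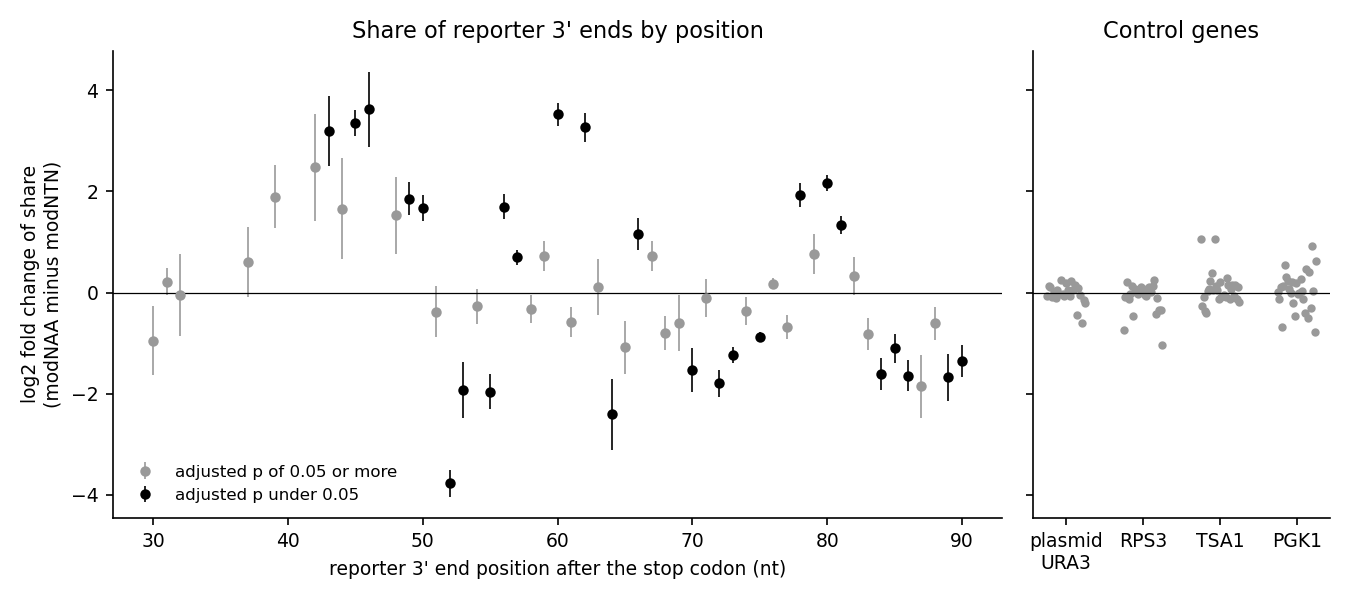
Log2 fold change of the share of a gene's 3′ ends, modNAA over modNTN, at each tested position. The reporter is on the left by distance after the stop codon from 30 to 90 nt, with bars of 1 SE and black points where the edgeR adjusted p was under 0.05, and the control genes are on the right with no error bars. Of the reporter's called positions 13 lie above 0 and the others below, with 149 nt outside the axis, and all 105 control gene positions are grey.

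CPM of 3′ ends, scaled to the library total and not to the reporter's own total, compare the number of ends at each site. This fit was added after the shares had been seen. It called 4 reporter positions higher and 35 lower in modNAA (39 of 163 positions of 5 genes, 23.9%). The 4 higher ones were at 45, 60, 62 and 80 nt. At 60 nt there were 95.4 and 83.7 CPM of ends in modNAA, against 22.9 and 21.1 in modNTN (log2 fold change 2.02, SE 0.30). At 45 nt there were 95.4 and 69.4 in modNAA and 26.5 and 18.7 in modNTN (1.86, SE 0.29). The large site at 80 nt had 346 and 304 CPM of ends in modNAA and 178 and 235 in modNTN (0.65, SE 0.22, edgeR adjusted p = 0.020). At these sites the A construct had more ends relative to the library total, although its reporter had fewer reads in all. Absolute amounts cannot be read from these values, since they are scaled to the library total.

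Most of the difference in ends lay in 1 cluster. The reporter had 2713 CPM of ends on average in modNAA and 7688 in modNTN, a difference of 4976. The sites from 72 to 77 nt made up 76.7% of that difference, and 75 nt alone 46.8%. In modNTN they held 65.0% and 37.5% of the reporter's ends on average, so an even drop over all sites would also lie mostly in this cluster. At 75 nt there were 582 and 528 CPM of ends in modNAA and 2634 and 3137 in modNTN (log2 fold change −2.38, SE 0.18). At 76 nt, where the difference in share did not pass, that in CPM of ends did (log2 fold change −1.33, SE 0.19). At 52 nt there were 7.30 and 8.16 CPM of ends in modNAA and 289 and 315 in modNTN (−5.27, SE 0.33), and the region from 51 to 54 nt made up 6.83% of the difference. Bounds of these regions were set after the profiles had been seen, so they describe and were not tested.

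**Figure D4:**
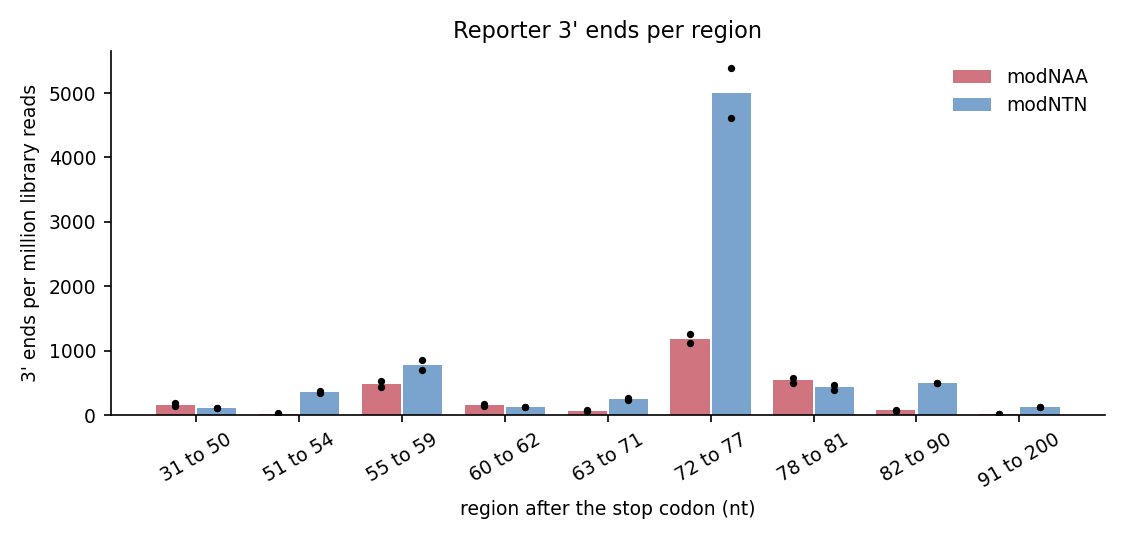
Reporter 3′ end CPM (scaled to all reads of the library) by region after the stop codon (nt), with modNAA bars left of modNTN bars, bars at the mean of 2 libraries and points at each library. The bars for 72 to 77 nt differ most, and 31 to 50, 60 to 62 and 78 to 81 nt are the regions with a higher mean in modNAA (163, 154 and 543 CPM of ends, against 111, 120 and 432 in modNTN).

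Set beside the construct with 3 random inserts, the sites differed in which construct stood apart. The modNNN ends within 200 nt equal 84.9% and 90.8% of its reporter reads, a smaller part than in modNAA and modNTN. At 80 nt the share was 11.999% ± 0.211 in modNAA and 2.67% ± 0.26 in modNTN, with 1.84% ± 0.11 in modNNN (SD, n = 2 each), and at 60 nt it was 3.30% ± 0.06 and 0.288% ± 0.046, with 0.351% ± 0.026 in modNNN. Against modNNN the log2 fold change was 2.70 in modNAA and 0.54 in modNTN at 80 nt, both past the threshold (edgeR adjusted p = 1.1e-08 and 0.028). At 60 nt it was 3.23 in modNAA and −0.29 in modNTN, which did not pass in modNTN (edgeR adjusted p = 0.67). At 75 nt it was modNAA that lay near modNNN, which held 19.3% and 19.4% (log2 fold change against modNNN 0.09 in modNAA, edgeR adjusted p = 0.76, and 0.96 in modNTN). At 56 and 57 nt modNAA did not pass against modNNN (log2 fold change 0.26 and 0.07, edgeR adjusted p = 0.74 and 0.94). There modNTN was lower than modNNN (−1.44 and −0.62, edgeR adjusted p = 0.00053 and 0.0084). The site at 52 nt held 0.136% and 0.135% in modNNN, nearer modNAA than modNTN. At 45 and 55 nt both were below modNNN, which held 7.62% and 6.32% at 45 nt and 7.47% and 10.6% at 55 nt. The log2 fold changes against modNNN were −1.21 in modNAA and −4.55 in modNTN at 45 nt, and −5.51 and −3.55 at 55 nt. Sites with more ends in modNAA than in modNTN are thus not all sites that are high in modNAA against random inserts. Of the other constructs with 1 usable library, modNGG, which carries no A, held 14.9% of its ends at 80 nt. The construct modHTH, which also carries T, held 6.61% at 52 nt.

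The control genes' 3′ ends moved by less than the reporter's, though not all their pairs overlapped. Their mean positions were 58.37 ± 0.04 nt in modNAA and 58.8 ± 0.1 nt in modNTN on RPS3, and 104.4 ± 0.1 nt in both on TSA1 (SD, n = 2 each). On PGK1 they were 154.1 ± 0.3 nt in modNAA and 154.5 ± 0.2 nt in modNTN, and on plasmid URA3 19.7 ± 1.2 nt and 20.3 ± 1.1 nt (SD, n = 2 each). The effective number of sites was 8.68 ± 0.49 in modNAA and 8.41 ± 0.44 in modNTN on RPS3, and 4.38 ± 0.19 and 4.50 ± 0.07 on plasmid URA3, differences within the spread of the libraries. On PGK1 it was 4.98 and 4.81 in modNAA and 4.35 and 4.13 in modNTN, and on TSA1 5.79 and 5.99 in modNAA and 5.70 and 5.51 in modNTN. Neither of these overlapped, and both were higher in modNAA as on the reporter, by a smaller amount. The mean positions of RPS3 (58.40 and 58.35 nt in modNAA, 58.87 and 58.69 nt in modNTN) and of PGK1 (154.28 and 153.88 nt in modNAA, 154.61 and 154.34 nt in modNTN) also did not overlap and were lower in modNAA as on the reporter. The part of such shifts in the reporter's values was not tested, and the levels of 29.7% of host genes did not overlap between the pairs either.

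The 5′ ends of the reporter's decay intermediates were deposited from 299 nt before to 49 nt after the stop codon. These tables have a ceiling, since 18 and 14 positions in the modNAA libraries and 26 and 30 in modNTN share the library's highest count. That count was 44 and 45 in modNAA and 69 and 79 in modNTN. Such positions held 22.0% and 16.7% of ends in modNAA and 23.1% and 25.8% in modNTN, so the values are given with no test. There were 3599 and 3775 ends in modNAA against 7770 and 9197 in modNTN. Ends past the stop codon by the deposited numbering were 42 and 49 in modNAA and 34 and 34 in modNTN, which is 1.17% and 1.30% against 0.438% and 0.370%. Which base of the stop codon this numbering starts from is not stated, so the first of these positions may lie within the codon. Counted from 3 nt on, there were 21 and 32 ends in modNAA and 27 and 26 in modNTN, or 0.583% and 0.848% against 0.347% and 0.283%. The pairs did not overlap either way, as was also so for the levels of 29.7% of host genes. In modNNN the shares were 1.03% and 0.977% past the stop codon, and 0.840% and 0.817% counted from 3 nt. By both counts modNAA lay nearer modNNN than modNTN did. How the ceiling bears on these shares was not tested. On the native RPS3 the shares past the stop codon were 0.280% and 0.327% in modNAA and 0.132% and 0.241% in modNTN, the same direction at a lower level. On TSA1 they were 0.376% and 0.236% in modNAA and 0.175% and 0.202% in modNTN, again without overlap and in the same direction, on at most 11 ends a library. On PGK1 they were 2.97% and 6.91% in modNAA against 3.21% and 2.69%, which overlap. The frame that led in the control genes, taken more than 20 nt before the stop codon, held 37.96% and 35.7% of reporter ends in modNAA and 35.8% and 35.4% in modNTN, values close to each other.

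No host gene passed the test. Of 5268 genes, 0 were called in edgeR (0%), with 30 higher and 32 lower in modNAA at an unadjusted p under 0.05, and DESeq2 called 0 with 10 at an unadjusted p under 0.05. The log2 fold changes ran from −0.36 at the 5th to 0.31 at the 95th percentile with a median SE of 0.20, so small changes were not detectable. Only 11 genes lay beyond 2-fold, and none of the 2127 genes with at least 100 CPM did. The following were the genes with the smallest unadjusted p, each with an edgeR adjusted p of 0.99996. AIM34, a mitochondrial protein gene, had 23.6 and 29.1 CPM in modNAA and 12.7 and 12.9 CPM in modNTN (log2 fold change 1.04, SE 0.28). IRC19 gave 0.92, DLT1 0.76, TRZ1, the tRNA 3′ end nuclease, 0.60, and UBX3 and the siderophore transporter SIT1 0.53. YOR342C gave 0.49 and MRPL9, a protein of the mitochondrial ribosome, 0.46. CAC2, a subunit of chromatin assembly factor, rested on 2 and 5 reads in modNAA and 13 and 14 in modNTN (−2.06, SE 0.55). BAG7 gave −1.01, IPL1, the Aurora kinase, −0.92, the recombination gene RAD57 −0.90, SNA4 −0.71 and the ribosome biogenesis factor NSA2 −0.45. TIM23, the inner membrane protein import channel, had 405 and 355 CPM in modNAA and 512 and 501 CPM in modNTN. FIP1, a subunit of the cleavage and polyadenylation machinery (chromosome X, 603220 to 604203, R64), had 72.97 and 60.21 CPM in modNAA and 82.5 and 101.8 CPM in modNTN (−0.47, SE 0.18).

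**Figure D5:**
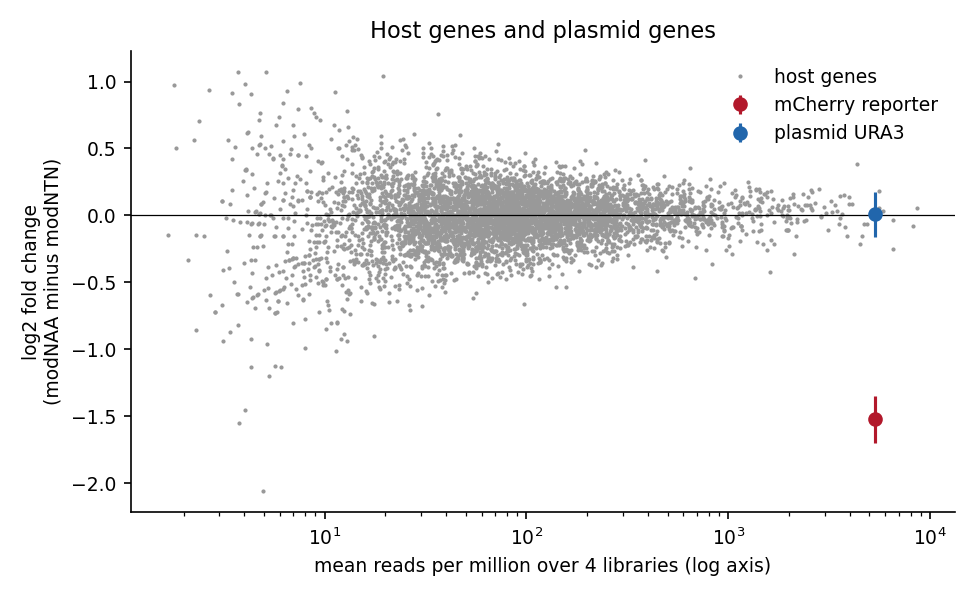
Log2 fold change, modNAA over modNTN, against mean CPM over the 4 libraries (log axis) for the 5268 host genes tested (grey), with the reporter in red and plasmid URA3 in blue and bars of 1 SE on these. The reporter lies at −1.52 and plasmid URA3 at 0.01, and the 11 host genes beyond 2-fold all lie under 100 CPM.

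Genes whose products act on 3′ ends and on mRNA decay were looked at as groups, and no member of any list passed. Of 27 genes for 3′ end processing and termination, 10 lay above 0 and 17 below, with a median log2 fold change of −0.03, against −0.0045 over all genes. The 7 PUF genes had a median of −0.14, with 3 above 0 and 4 below. Among them MPT5, a repressor that recruits the Ccr4-Not complex, had 135 and 94.4 CPM in modNAA and 177 and 155 CPM in modNTN (−0.53, SE 0.23, unadjusted p = 0.036 in edgeR's fit across all genes). PUF3, which binds mRNAs for mitochondrial proteins, had 162 and 94.4 CPM in modNAA and 177 and 194 CPM in modNTN (−0.53, SE 0.29). For both the first modNAA library lay nearer the modNTN pair than the second did. PUF6 went the other way, with 190 and 173 CPM in modNAA and 148 and 149 CPM in modNTN (0.29, SE 0.18). The 13 deadenylase genes had a median of −0.02, the 22 genes of decapping, 5′-3′ decay and nonsense-mediated decay 0.03, and the 17 of the exosome and Ski complex 0.11. In these, CAF16 gave 0.47 (SE 0.21) and LRP1, an exosome cofactor, 0.39 (SE 0.19). XRN1, the 5′-3′ exonuclease whose substrates the assay captures, gave 0.04 (SE 0.18).

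No member of the lists for growth and stress passed either. The 138 cytosolic ribosomal protein genes had a median of 0.03, the 39 tested of 40 ribosome biogenesis genes 0.06 (29 above 0 and 10 below) and the 65 tested of 66 mitochondrial ribosomal protein genes 0.05. The 35 respiratory chain genes gave a median of 0.03, 16 genes of glycolysis and fermentation −0.04 and 16 chaperone genes −0.05 (4 above 0 and 12 below). Of 25 general stress genes 6 lay above 0 and 19 below, with a median of −0.14, further from 0 than the other lists in this paragraph, and the small heat shock protein gene HSP26 gave −0.44 (SE 0.26). The 10 histone genes had a median of −0.02, and the 11 tested of 12 genes for pyrimidine synthesis and uracil uptake −0.07. The 6 genes of mating type a gave 0.02, and 2 of the 4 genes of mating type alpha had enough reads to be tested.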

How the data were processed

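HT-5PSeq libraries were primed with oligo(dT) only, per the labels' protocols. The deposited gene table and 3′ end tables hold counts, and no normalization by the authors shows in them. The 5′P tables hold counts under the ceiling described above, and how it was applied is not stated. Distances follow the deposited numbering. Per the submitters' processing notes, the tools included cutadapt, HISAT2, featureCounts, bedtools and SAMtools with sacCer3 (R64), with no version or setting given in the sources used here. Nothing there says whether duplicate reads were collapsed, so limits on shares cover counting error only.

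Libraries under 1000 reads were left out, which departs from the planned fit on all libraries. Host genes were fitted on 13 libraries and plasmid rows on the 11 with the reporter, with edgeR 4.0.16 in R 4.3.3 (TMM, filterByExpr, glmQLFit, glmQLFTest, a term for group alone), and p-values were adjusted by Benjamini-Hochberg with a threshold of 0.05. Constructs with 1 usable library were assumed to vary like the others. Positions of 5 genes with at least 10 ends in 2 libraries were fitted in edgeR on the 9 modified libraries, with each gene's total ends as offset. CPM are reads scaled to a library total of 1000000. SEs were taken from the log2 fold change and its F statistic. The same code was tested on simulated data.

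The constructs, gene lists and rules were chosen with earlier results of these data known. Named were the reporter, plasmid URA3, RPS3, PGK1, TSA1 and strain markers. To these came up to 8 host genes per direction by smallest unadjusted p where fewer passed, list members with the smallest p, and the 3 leading and up to 8 most changed positions per direction. A planned split of host genes by motif in the 3′ UTR was not run, since no genome was used here. Of 5696 host rows 5550 matched a symbol. Deviations of same-numbered libraries correlated at −0.024 over 4974 genes, so replicate numbers were not taken as pairs. Alternatives covered normalization, filter, DESeq2 1.42.0, libraries, replicate block, site width and 5′P counting.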

Additional observations from a re-analysis of the deposited data

How the results depend on the processing

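The reporter's log2 fold change kept its sign under every alternative run. It stood at −1.53 with a replicate block (edgeR adjusted p = 0.0056) and the call was kept with other normalizations, without the filter and in DESeq2 (adjusted p 4.0e-14). It was lost with near-empty libraries kept (−1.52), and with single libraries left out it ran from −1.68 to −1.38. With single libraries left out, plasmid URA3, at 0.0078, ran from −0.019 to 0.036 (−0.0089 without the first modNAA library), PGK1 from −0.71 to 0.17 and TSA1 from −0.28 to 0.00098, so none of these has a stable sign. No alternative called a host gene. Of the 27 reporter positions, 16 were called in the same direction under every one of the 15 alternatives that tested them. Those at 43, 53, 57, 64, 66, 70, 84, 85, 89, 90 and 149 nt were not. The position at 46 nt, which is among the 16, had too few ends to be tested on the 4 libraries alone. Over the named and called positions and these alternatives, 27 calls were lost, 3 were gained and no position changed direction. Merged into windows of 5 nt, 12 windows were called, 6 in each direction. DESeq2 called 7 positions lower, and leaving out a library gave from 8 to 19 lower. The replicate block called as many reporter positions, 27. It called 1 control gene position, as did the fits on the 4 libraries alone and without either modNNN library. At 76 nt the share passed with only the 4 libraries fitted (edgeR adjusted p = 0.020) and without the first or the second modNNN library (0.016 and 0.015). The difference in mean position was −1.78 nt over sites with at least 1% of ends, that at 75 nt was −20.1 percentage points with the site widened by 2 nt on each side, and that in 5′P ends past the stop codon was 0.99 without the positions at the highest count and 0.40 counted from 3 nt, which was added after the data were seen, against 0.83. The cause was not tested. Sites with under 10 ends in a library have wide errors.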
